A study of Mus musculus with 2 samples.

Results

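Connexins are the membrane proteins that build gap junctions, and the expression of 6 of their genes was described here in the ependymal and vascular cells of the mouse spinal cord: Gja1 (connexin 43), Gja4 (connexin 37), Gja5 (connexin 40), Gjb2 (connexin 26), Gjb6 (connexin 30) and Gjc1 (connexin 45). The genes were listed by name, without reference to their values, and they are 6 of the 13 connexin genes among the 24071 genes in the count tables. Both libraries were droplet 3′ single-cell RNA libraries of CD45- CD133+ cells sorted from the spinal cords of C57BL/6j mice aged 10 to 12 weeks. All mice carried the genotype Clec9acre/creR26LSLtdTomato/LSLtdTomato, in which Cre made from the locus of Clec9a (the gene for DNGR-1) switches on a heritable tdTomato label, so there was no genotype control. The CD133+ DNGR-1 traced library held 4825 tdTomato-positive cells and the CD133+ non-traced library 25411 cells without the label. There was 1 library per group, and the number of animals behind each is not given in the labels.

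A connexin hexamer in one cell docks with a hexamer in its neighbour to form a channel that passes ions and small metabolites, and the connexins present set which molecules pass and which neighbours can couple. Ependymal cells, the ciliated lining of the central canal, are classically coupled through connexin 43. Connexins 37 and 40 are known from arterial endothelium, connexin 45 from vascular smooth muscle and pericytes, and connexins 26 and 30 from astrocytes and the meninges.

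Cells were clustered in each library without any connexin among the features and named from marker genes. Of the traced cells, 4707 were ependymal-like and 64 endothelial-like. The non-traced library held 20864 endothelial-like, 1167 ependymal-like, 200 mural-like and 30 fibroblast-like cells, while 2383 cells carried the markers of more than one class and were kept apart as mixed droplets. Within the endothelial-like cells, 4441 were arterial-like, 9460 capillary-like and 2584 venous-like, and 4379 were not assigned to a zone. All 10 ependymal markers were found in at least 50% of traced ependymal-like cells, all 8 endothelial markers in at least 50% of endothelial-like cells and all 9 mural markers in at least 50% of mural-like cells. The libraries held 233318692 UMIs (non-traced) and 46530507 UMIs (traced), with a median of 7218 and 8566 UMIs per cell. Among ependymal-like cells, the tdTomato reporter row stood at 318 CPM where the sort was for traced cells and at 71.8 CPM where it was not. Prom1, which encodes the CD133 antigen used for the sort, reached 335 CPM in endothelial-like cells but only 9.80 CPM (traced) and 30.4 CPM (non-traced) in ependymal-like ones, and the gate removes mural, astrocytic and fibroblastic cells that lack the antigen. A barcode was shared by both libraries in 42 cells.

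Levels below are in CPM, the UMIs of a gene summed over the cells of a class, divided by all their UMIs and put on the usual CPM scale. Brackets hold 95% Poisson intervals for levels, exact conditional intervals for folds and Clopper-Pearson intervals for shares of cells. They cover counting error only. With 1 library per group there was no test, cells are not replicates, and a connexin was called higher or lower where the fold passed 2 and the higher level reached 10 CPM. Levels are compared within a gene, not between genes.

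The 6 genes lie on 5 chromosomes of the mouse assembly GRCm38 (mm10). Gja1 (ENSMUSG00000050953.10) spans chr10:56377330-56402513 on the plus strand. Gjc1 (ENSMUSG00000034520.14) spans chr11:102799579-102819700 on the minus strand. Gja4 (ENSMUSG00000050234.7) occupies chr4:127311421-127314039 on the minus strand, and Gja5 (ENSMUSG00000057123.14) occupies chr3:96904693-97077416 on the plus strand, where 4 annotated minus-strand genes overlap it. Gjb2 (ENSMUSG00000046352.7, chr14:57098600-57104702) and Gjb6 (ENSMUSG00000040055.9, chr14:57123303-57133611) are neighbours on the minus strand, with 18600 bases between them.

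The sequences upstream of Gja4 and Gja5 are shown because these genes separated arterial-like from other endothelial-like cells. Each is the 250 bases before the gene's start in RefSeq (GRCm38.p6), written 5′ to 3′ on the gene's own strand, chr4:127314040-127314289 (minus) for Gja4 and chr3:97032152-97032401 (plus) for Gja5. The Gja5 window lies inside the GENCODE span given above, downstream of the start of that span. Capitals mark the GC box GGGCGG and the SOX core ACAAT, which were searched on both strands together with the RBPJ core TGGGAA.
Gja4: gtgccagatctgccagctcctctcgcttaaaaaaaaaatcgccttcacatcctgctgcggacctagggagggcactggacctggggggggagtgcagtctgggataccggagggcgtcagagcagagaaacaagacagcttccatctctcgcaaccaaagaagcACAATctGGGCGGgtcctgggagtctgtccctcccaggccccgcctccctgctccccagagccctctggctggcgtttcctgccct
Gja5: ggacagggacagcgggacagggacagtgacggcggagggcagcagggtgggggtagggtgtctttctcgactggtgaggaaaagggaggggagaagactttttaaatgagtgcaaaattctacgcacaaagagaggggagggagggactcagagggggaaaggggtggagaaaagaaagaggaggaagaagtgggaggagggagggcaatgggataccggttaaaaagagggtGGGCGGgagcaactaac
Both windows held 1 GC box, a motif present in 32.7% of the 32851 RefSeq promoter windows of this length. The SOX core, found in 27.7% of windows, was in the Gja4 window and not in that of Gja5, and TGGGAA, found in 21.6%, was in neither. The capitals do not overlap. A match is a run of letters, not a measured binding site.

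Gja1 was highest in the ependymal-like cells among the classes compared. Its level there was 348 CPM (343–353; 15903 UMIs) for the traced library and 358 CPM (345–370; 3201 UMIs) for the non-traced library, against 47.8 CPM (46.8–48.8) in endothelial-like cells and 11.3 CPM (5.41–20.8; 10 UMIs) in mural-like cells. Gjc1 was also found in ependymal-like cells, at 36.6 CPM (34.8–38.4) when traced and 35.1 CPM (31.3–39.2) when not. The other 4 connexins were close to absent there. Gja4 gave 3 UMIs, Gja5 2, Gjb2 11 and Gjb6 3 in all 4707 traced cells.

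The traced to non-traced ratio was 0.97 (0.94–1.01) for Gja1 and 1.04 (0.92–1.18) for Gjc1, so neither differed beyond its counting interval over all cells. Cells with 2 or more endothelial or 2 or more mural markers were then left out, which left 4663 traced and 403 non-traced cells. In these, Gjc1 was at 36.6 CPM (34.9–38.4) when traced and 28.5 CPM (22.5–35.5) when not, and Gja1 at 348 and 360 CPM. The counts that follow are again over all cells. Of the 2 connexins that reached 10 CPM on either side, 0 were called, where 2.90% of the 9630 genes tested were called in either direction. Gja4 was at 0.07 CPM in the traced class and 1.12 CPM (0.54–2.05; 10 UMIs) in its non-traced counterpart, both under the 10 CPM minimum. Endothelial transcripts moved with it: the 8 endothelial markers summed to 2.80 CPM on the traced side and 560 CPM on the other, and Cdh5, which encodes VE-cadherin, gave 0 UMIs against 16.1 CPM. The part of these transcripts in the Gja4 and Gjc1 counts was not tested.

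**Figure D1:**
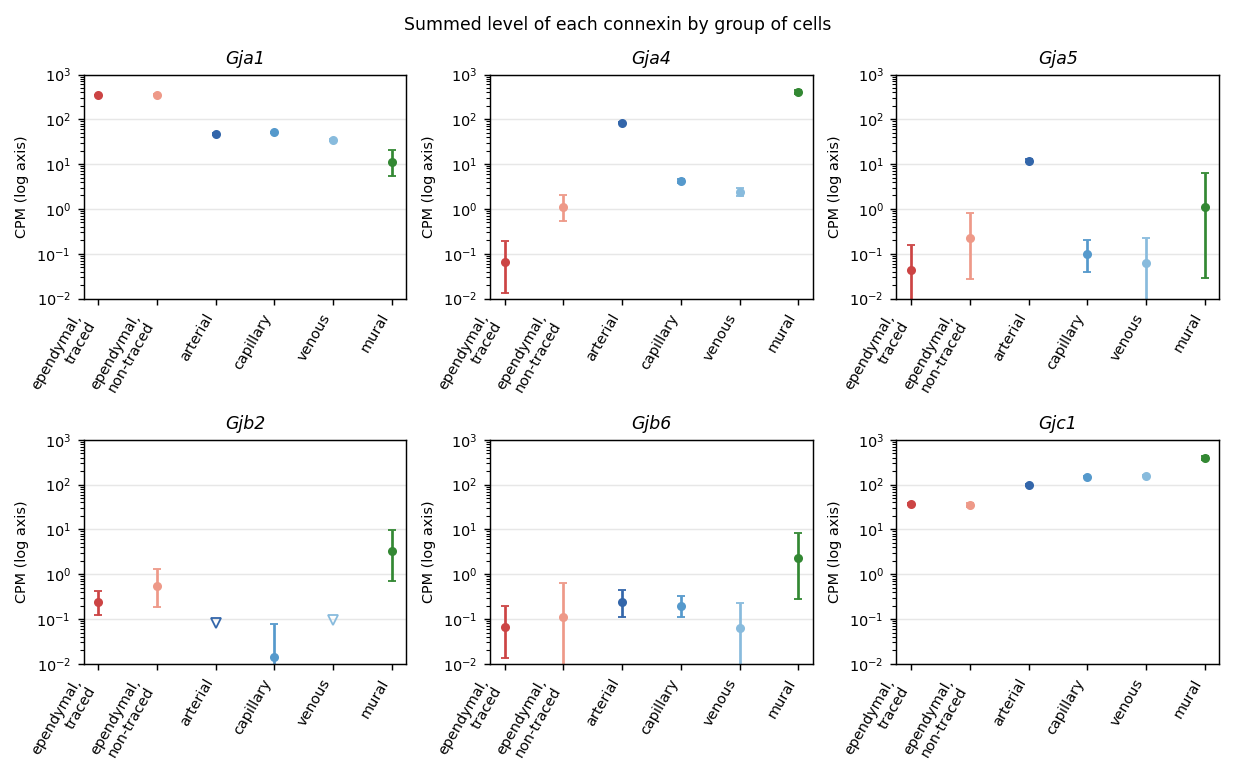
Levels of the 6 connexins (log-scaled CPM) in ependymal-like, endothelial-like and mural-like cell classes, with 95% Poisson intervals and open triangles at the level of 3 counts where a class had 0 UMIs. Gja1 is highest in both ependymal-like classes, Gja4 in mural-like and then arterial-like cells, Gja5 in arterial-like cells and Gjc1 in mural-like cells, while Gjb2 and Gjb6 stay below 4 CPM in every class.

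At equal depth the shares of cells followed the levels. After each cell was thinned to 1000 UMIs, Gja1 was detected in 28.4% (27.2–29.8) of traced and 30.2% (27.5–32.9) of non-traced ependymal-like cells, in 4.49% (4.21–4.78) of endothelial-like and in 1.5% (0.31–4.32) of mural-like cells. Without thinning, at median depths of 8589, 7123, 6903 and 4063 UMIs, the shares were 89.7%, 85.9%, 27.5% and 3.50%. Traced ependymal-like cells thinned to 3000 UMIs held 1.04 Gja1 UMIs on average, with a median of 1 and a maximum of 8. Gja1 was seen in 61.6% (57.0–66.0) of these cells that also had a Gjc1 UMI and in 60.8% (59.3–62.3) of those without one. In non-traced ependymal-like cells, the shares were 76.5% (67.7–83.9) and 59.9% (56.9–63.0).

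Within the ependymal-like cells, Gja1 in each sub-cluster lay above its level in each endothelial zone and in mural-like cells. Across the 10 traced sub-clusters it ranged from 276 CPM, in a sub-cluster led by Gm42418 and Lars2, to 407 CPM, in one led by the immediate early genes Atf3 and Egr1. The 8 non-traced sub-clusters lay between 280 and 576 CPM. The highest value, 576 CPM (445–733), came from the 12 cells with dorsal midline markers, and the lowest from 47 cycling-like cells. Those 12 cells also had the astroglial genes Slc1a2, Aqp4, Gpr37l1, Ntsr2, Gfap and Atp1b2 above the other non-traced ependymal-like cells. The part of astrocyte RNA in their Gja1 level was not tested.

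Summed over cells, Gjc1 had its highest ependymal level in the 104 traced cells with cell cycle markers. In these cycling-like cells, Gjc1 was at 81.9 CPM (67.2–98.9; 108 UMIs), 2.33-fold (1.90–2.83) above the 35.2 CPM of the other 4603 traced ependymal-like cells, whose sub-clusters reached at most 43.1 CPM. Gja1 was at 310 CPM in the cycling-like cells, inside the range of the rest. The median depth of the cycling-like cells was 11093 UMIs, and CPM already divides by depth. Thinned to 3000 UMIs, 101 cycling-like cells held 0.158 Gjc1 UMIs on average and 14.9% of them had one, against 0.111 UMIs and 10.1% over all traced ependymal-like cells. That gap was short of 2-fold, but it comes from a random draw and rests on 15 cycling-like cells with a Gjc1 UMI. No interval was computed for it, and the second group includes the cycling-like cells. Whether the 2.33-fold gap depends on depth was not tested. The endothelial markers summed to 3.03 CPM in the cycling-like cells, and Cdh5 gave 0 UMIs. The 47 non-traced cycling-like cells had Gjc1 at 52.3 CPM (35.6–74.3) against 26.2 to 42.8 CPM in the other non-traced sub-clusters, the lowest from 3 UMIs in the 12 dorsal midline cells, but their endothelial markers summed to 4072 CPM, and the part of those transcripts was not tested.

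**Figure D2:**
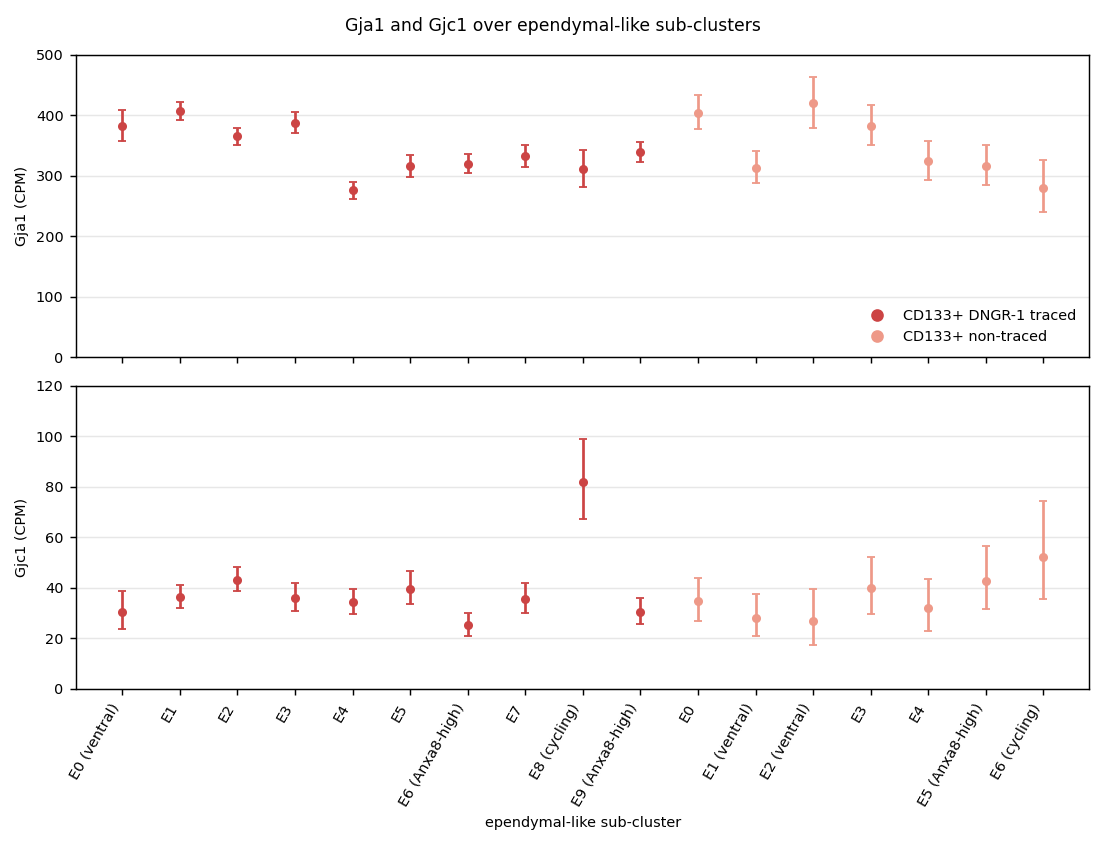
Gja1 and Gjc1 levels (CPM, linear axes) in the ependymal-like sub-clusters of the traced and non-traced libraries, the 12 dorsal midline cells not shown, with 95% Poisson intervals. Gja1 lies between 276 and 420 CPM throughout, and Gjc1 is highest in the traced cycling-like cells at 81.9 CPM, a gap that was short of 2-fold at equal depth.

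Ependymal-like and endothelial-like cells differed in 3 of the connexins that reached 10 CPM in one of them. Gja1 was 7.27-fold (7.08–7.47) higher in traced ependymal-like cells than in the non-traced endothelium, while 29.3% of the 10550 genes tested were called higher and 50.1% in either direction. Gjc1 was 3.81-fold (3.621–4.001) lower and Gja4 was 360-fold (123–1744; 3 UMIs) lower, where 20.8% of genes were called lower. Gja4 reached 10 CPM only in endothelial-like cells, so it could not have been called higher. Because each type came from the library in which it was common, library and type cannot be told apart in these folds. Within the non-traced library alone, Gja1 was 7.48-fold (7.18–7.79) higher, Gjc1 3.97-fold (3.55–4.45) lower and Gja4 21.1-fold (11.5–44.1) lower in ependymal-like cells, against a background of 27.7% of 10516 genes called higher and 19.7% called lower.

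**Figure D3:**
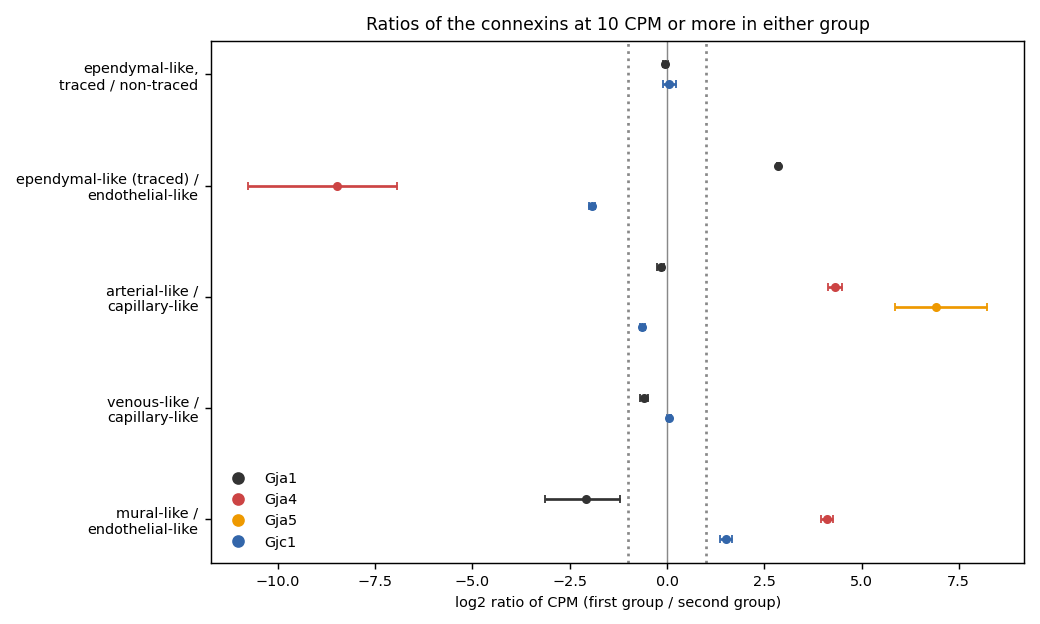
Ratio of CPM between cell classes (log2) for each connexin that reached 10 CPM in one of the classes compared, with exact conditional 95% intervals and dotted lines at 2-fold. Gja4 and Gja5 lie farthest from no change, and the ependymal-like pair lies at 0.97 for Gja1 and 1.04 for Gjc1.

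Gja4 and Gja5 marked the arterial end of the vessel tree. Gja4 was at 83.9 CPM (81.0–86.9; 3157 UMIs) in arterial-like cells, 4.23 CPM (3.76–4.74) in capillary-like cells and 2.41 CPM (1.90–3.01) in venous-like cells. Gja5 was at 12.0 CPM (10.9–13.2; 451 UMIs) in arterial-like cells and gave 7 UMIs in all capillary-like and 2 UMIs in all venous-like cells. Of the 4 connexins at 10 CPM or more, these 2 were called higher in arterial-like than in capillary-like cells and 0 were called lower, where 3.46% of the 8413 genes tested were called higher, 1.66% lower and 5.12% either way. Gja4 and Gja5 reached 10 CPM only in the arterial-like cells of the 3 zones, so neither could have been called lower. The folds were 19.9 (17.6–22.5) for Gja4 and 120 (58.0–301) for Gja5. Against venous-like cells, both were again called higher, at 34.9-fold (27.8–44.3) for Gja4 and 192-fold (52.8–1588; 2 UMIs in venous-like cells) for Gja5, with 3.60% of 8522 genes called higher, 2.97% lower and 6.57% either way. Smooth muscle markers moved in the same direction, at a summed 130 CPM in arterial-like and 29.9 CPM in capillary-like cells, and from 95.6 to 216 CPM over the arterial-like sub-clusters, while the 9 mural markers were at 345 and 518 CPM. The part of smooth muscle RNA in the Gja4 level was not tested.

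In single cells both transcripts were sparse. At 1000 UMIs per cell, Gja4 was detected in 7.66% (6.89–8.48) of arterial-like cells, 0.44% (0.32–0.60) of capillary-like cells and 0 of 4707 traced ependymal-like cells, which allows up to 0.0637% of cells with a UMI at this depth and sets no limit on cells that express the gene. Unthinned, the arterial and capillary shares were 35.1% and 2.98%, at median depths of 6927 and 6253 UMIs, and 3 traced ependymal-like cells had a UMI. Gja5 was found in 1.28% (0.97–1.66) of arterial-like cells thinned to 1000 UMIs and in 7.54% without thinning. At 3000 UMIs, 32.8% (24.7–41.8) of the 125 arterial-like cells with a Gja5 UMI also had a Gja4 UMI, against 19.1% (17.95–20.34) of the 4231 without one.

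The arterial-like cells were not uniform. They fell into 3 sub-clusters, and Gja4 and Gja5 were ordered like the summed arterial markers (3515, 5383 and 10927 CPM), which contain no connexin. The lowest, 1315 cells led by genes such as Nov and Cdh13, had Gja4 at 34.2 CPM and Gja5 at 1.57 CPM. The middle one, 2278 cells with Bmx, Gkn3 and Vegfc among their leading genes, had 70.4 and 9.19 CPM. The highest, 848 cells led by Fbln5, an elastic fibre protein, and Mgp, an inhibitor of calcification, had Gja4 at 178 CPM (169–187) and Gja5 at 31.7 CPM (28.0–35.7). In that sub-cluster Gjc1 was lowest of the 3, at 74.1 CPM (68.3–80.1) against 118 CPM in the first and 96.8 CPM in the second. A finer clustering divided the cells further: a sub-cluster of 621 arterial-like cells had Gja4 at 165 CPM and Gja5 at 40.3 CPM, while another of 253 cells had Gja4 at 194.5 CPM with Gja5 at only 3.68 CPM. A high Gja4 level was therefore found with and without a high Gja5 level.

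Outside the arterial-like cells, Gja4 was higher in a sub-cluster of 2235 cells not assigned to a zone than in any capillary-like or venous-like sub-cluster, at 22.3 CPM with Gja5 at 1.54 CPM. Its leading genes included the arterial markers Efnb2, Hey1 and Sema3g. Another unassigned sub-cluster, of 255 cells led by the smooth muscle genes Myl9 and Myh11, had Gja4 at 47.7 CPM. The 4 capillary-like sub-clusters had Gja4 between 2.03 and 7.37 CPM, with the highest value in the cells led by Cxcl12 and Mfsd2a, the lipid transporter of the blood-brain barrier.

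**Figure D4:**
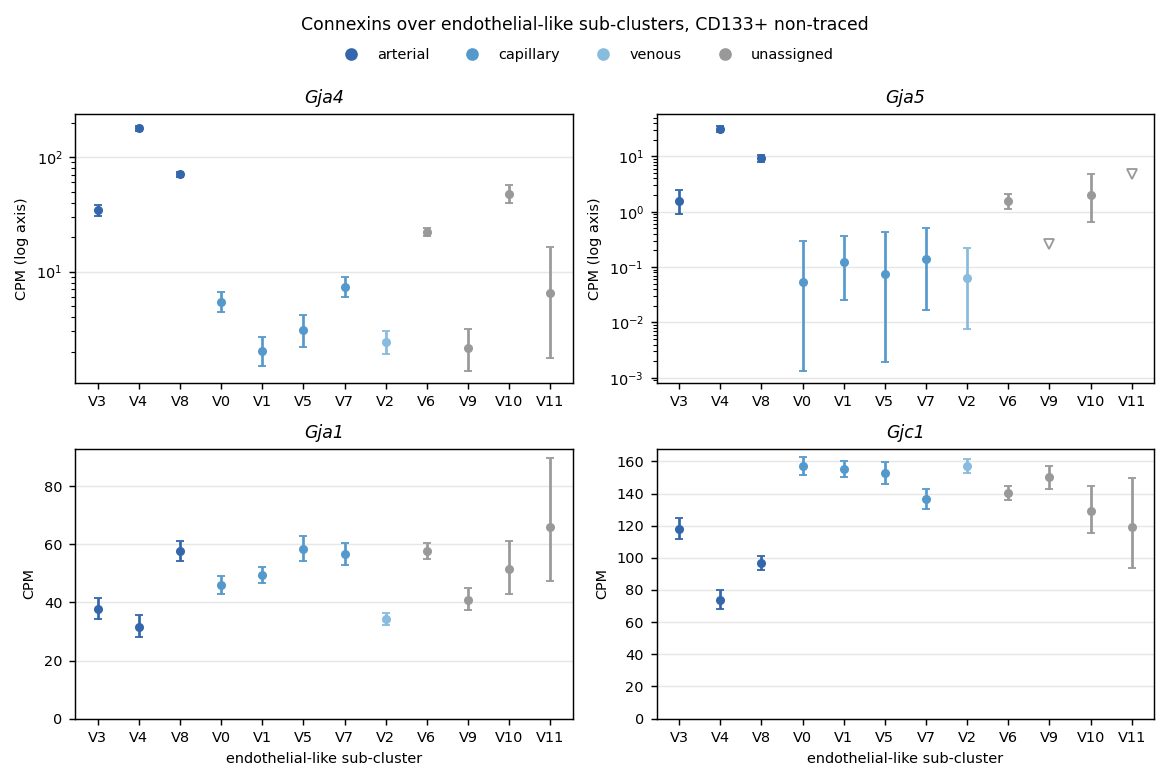
Levels of Gja4, Gja5, Gja1 and Gjc1 (CPM) in the endothelial-like sub-clusters of the non-traced library, grouped by zone, with 95% Poisson intervals, on log axes for Gja4 and Gja5 and linear axes for Gja1 and Gjc1; open triangles mark the level of 3 counts where there were 0 UMIs. Gja4 and Gja5 are highest in the arterial-like sub-cluster led by Fbln5 and Mgp (V4), at 178 and 31.7 CPM, where Gjc1 is at 74.1 CPM.

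Gjc1 and Gja1 were present in every endothelial zone. Gjc1 was at 97.8 CPM (94.7–101) in arterial-like, 151.5 CPM (149–154) in capillary-like and 157 CPM (153–162) in venous-like cells. Gja1 was at 46.2 CPM (1737 UMIs), 51.7 CPM (3631 UMIs) and 34.2 CPM (1095 UMIs) in the same order. Arterial-like cells thus had the lowest Gjc1 and venous-like cells the lowest Gja1. The arterial to capillary ratio was 0.65 (0.62–0.67) for Gjc1 and 0.89 (0.84–0.95) for Gja1, neither past 2-fold.

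No connexin was called between venous-like and capillary-like cells. Of the 2 connexins that reached 10 CPM, 0 were called, where 1.77% of the 8326 genes tested were called in either direction (1.39% higher and 0.372% lower). With 2 genes, a count of 0 is near that share. The venous to capillary ratio was 0.66 (0.62–0.71) for Gja1 and 1.04 (1.003–1.073) for Gjc1. Gja4 was also lower in venous-like cells, at the levels given above, but was under 10 CPM in both and so was not tested. The venous-like cells were deeper, with a median of 11331 UMIs against 6253 in capillary-like cells. In the finer clustering, the 127 venous-like cells led by Lrg1 and Ackr1, a chemokine-binding receptor of post-capillary venules, had Gjc1 at 74.7 CPM and no Gja4 UMI, against 139 and 158 CPM of Gjc1 in the other venous-like sub-clusters.

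Mural-like cells had the highest levels of both Gja4 and Gjc1 among the classes compared. Their leading genes were pericyte genes such as Vtn, Kcnj8, Atp13a5 and Higd1b, and 1 of the 7 smooth muscle markers was in at least 50% of cells, so the class does not stand for smooth muscle. Gja4 was at 407.5 CPM (367–452; 361 UMIs) and Gjc1 at 397 CPM (357–441; 352 UMIs), whereas Gja5 gave 1 UMI in the 200 cells. Of the 3 connexins at 10 CPM or more, Gja4 was called higher than in endothelial-like cells, at 17.3-fold (15.5–19.2), and so was Gjc1, at 2.86-fold (2.56–3.17). Gja1 was called lower, at 4.24-fold (2.30–8.84; 10 UMIs). The background was 16.0% of 9522 genes called higher and 14.5% called lower. Set against arterial-like cells alone, Gja4 was still 4.86-fold (4.34–5.42) and Gjc1 4.06-fold (3.63–4.53) higher, with 15.5% of 9533 genes called higher.

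At 1000 UMIs, Gja4 was found in 32.5% (26.1–39.5) and Gjc1 in 32.0% (25.6–38.9) of mural-like cells, and without thinning in 72.0% and 76.5%. Gja4 was seen in 64.1% of mural-like cells with a Gjc1 UMI and in 33 of the 55 without one, at 3000 UMIs.

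Markers of other cells were present in the mural-like class. The 8 endothelial markers summed to 3608 CPM, with 4 of the 8 in at least 50% of cells, the 10 ependymal markers to 752 CPM and the 7 smooth muscle markers to 2826 CPM. Smooth muscle markers were not part of a filter that left out every cell with 2 or more ependymal or 2 or more endothelial markers. It left 23 mural-like cells with 66741 UMIs in all, in which Cdh5, one of those endothelial markers, gave 0 UMIs. A cell with few UMIs passes such a filter more easily, and 0 UMIs allows up to 44.9 CPM of Cdh5. Gja4 was at 659 CPM (479–885; 44 UMIs) and Gjc1 at 434.5 CPM (291–624; 29 UMIs) in these 23 cells, so both were as high or higher than in the whole class. The part of smooth muscle RNA in these levels was not tested. Gja1 gave 0 UMIs, which allows up to 44.9 CPM, and the Gja1 call was lost.

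The mixed droplets showed the same assortment. Droplets with endothelial and smooth muscle markers (188) had Gja4 at 390 CPM (364–417) and Gja5 at 9.57 CPM (5.92–14.6), and those with endothelial and mural markers (1305) had Gja4 at 131 CPM (126–137) and Gjc1 at 255 CPM (248–262). Gja1 was at 191 CPM (182–199) in the 727 droplets with endothelial and ependymal markers, between the levels of those classes. These droplets hold RNA of more than 1 cell type, and their values are not levels of a type.

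Gjb2 and Gjb6, the connexins known from astrocytes and meninges, were at or near 0 in every ependymal-like, endothelial-like and mural-like class. Neither reached 10 CPM in any class compared. Gjb6 had the higher total of the pair, at 598 UMIs in the non-traced library, of which 28 came from the 20864 endothelial-like cells (0.15 CPM). Instead, 499 of them came from the 91 mixed droplets with astrocyte and endothelial markers, at 507 CPM (463–553), and 56 from the 30 fibroblast-like cells, at 154.5 CPM (117–201). At 1000 UMIs, Gjb6 was detected in 36.3% (26.4–47.0) of the astrocyte and endothelial droplets, and in 0.02% (0.01–0.06) of endothelial-like cells, and unthinned in 90.1% and 0.12%, at median depths of 9841 and 6903 UMIs.

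Gjb2 was scarcer, at 50 UMIs in the non-traced and 11 in the traced library. Its levels were 16.6 CPM (6.07–36.02; 6 UMIs) in fibroblast-like cells and 12.2 CPM (6.30–21.3; 12 UMIs) in the astrocyte and endothelial droplets. The latter also had the highest Gja1 of all groups, at 1291 CPM (1221–1364), and at 3000 UMIs Gja1 was in 96.8% (89.0–99.6) of the droplets with a Gjb6 UMI and 83.3% (62.6–95.3) of the 24 without one. The fibroblast-like cells carried endothelial markers at a summed 3189 CPM.

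**Figure D5:**
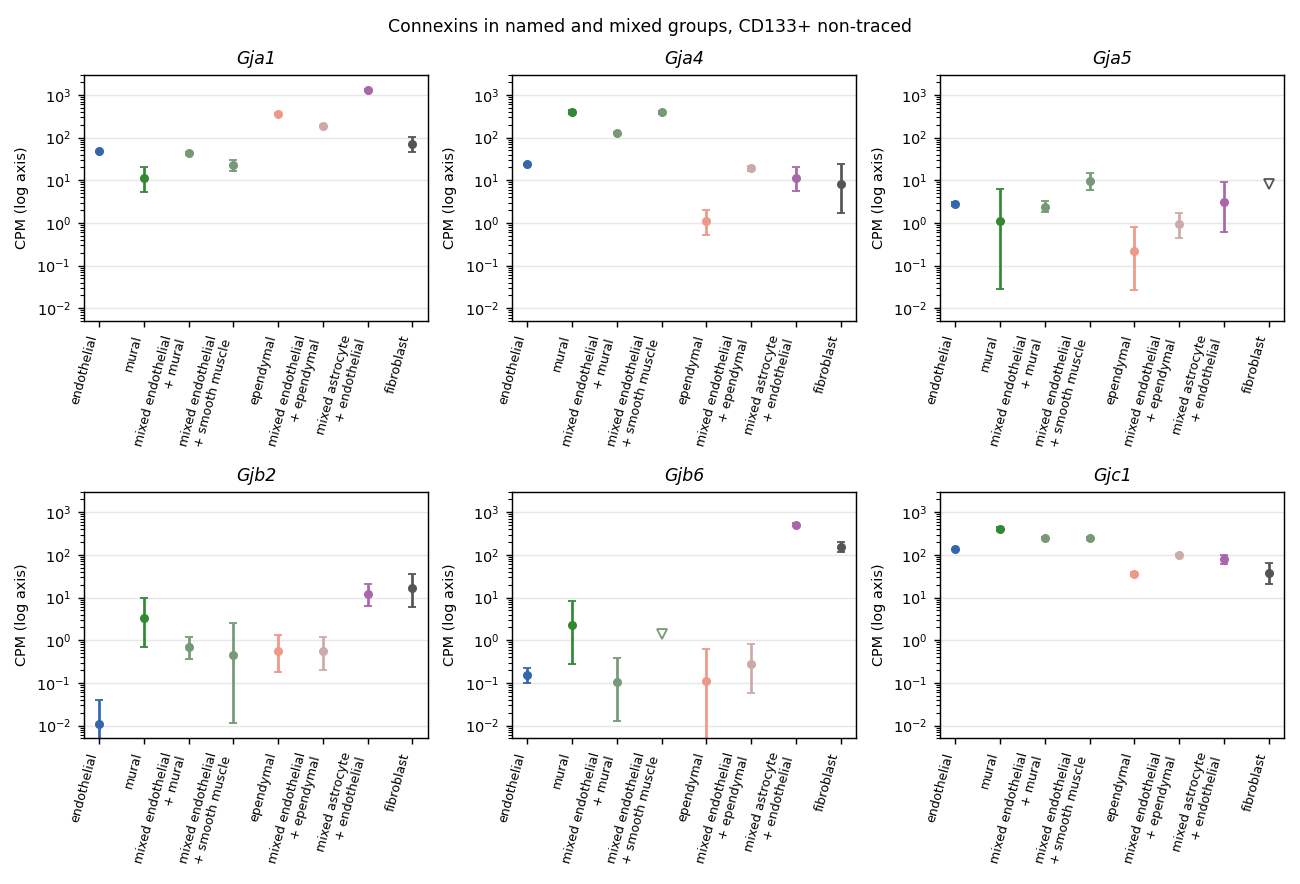
Levels of the 6 connexins (log-scaled CPM) in the named classes and mixed droplets of the non-traced library, with 95% Poisson intervals and open triangles at the level of 3 counts where a group had 0 UMIs. Gjb6 reaches 507 CPM in the astrocyte and endothelial droplets and stays below 3 CPM in ependymal-like, endothelial-like and mural-like cells.

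The 64 endothelial-like cells of the traced library contained UMIs of both Gja4 and Gja5. Gja4 was at 82.4 CPM (62.2–107; 56 UMIs), Gja5 at 11.8 CPM (5.08–23.2; 8 UMIs), Gja1 at 76.5 CPM (57.1–100) and Gjc1 at 110 CPM (86.8–138). Compared with their non-traced counterparts, Gja4 (3.49-fold, 2.63–4.54) and Gja5 (4.23-fold, 1.82–8.39) were called higher, where 9.18% of 9231 genes were called higher and 2.12% lower. Gja5 was under 10 CPM in the non-traced cells, so it could not have been called lower. Gja1 was 1.60-fold higher and Gjc1 was at 0.79 of the non-traced level, neither past 2-fold. Ependymal markers summed to 656 CPM against 14.9 CPM, and mural markers to 2426 CPM against 521 CPM. Their part was not tested, and library and sort cannot be told apart. The 64 cells were not assigned to a zone, whereas their counterparts were the endothelial-like cells of all zones. Gja4 and Gja5 in the 64 cells were close to the levels of non-traced arterial-like cells given above. The part of the mix of zones in these folds was not tested.

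Of the rest of the family, Gja6, Gjb1, Gjb5, Gjc3, Gjd2 and Gjd4 gave at most 16 UMIs each in the non-traced library, and none of these reached 10 CPM in an ependymal-like, endothelial-like or mural-like class.

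Connexin channels are held at the membrane by scaffolds and cadherins and are modified by kinases and a ubiquitin ligase, and 16 genes of such partners and pannexins were in the tables. In traced ependymal-like against endothelial-like cells, 13 were tested: 2 were called higher, Cdh2 (N-cadherin, 8.59-fold) and the kinase gene Src (2.38-fold), and 7 lower, where 29.3% of all genes were called higher and 20.8% lower. The lower ones included Tjp1, which encodes the connexin scaffold ZO-1 (5.60-fold), Ctnnb1, encoding β-catenin (3.79-fold), and Cdh5 (at least 9237-fold, with 0 UMIs in ependymal-like cells and a floor of 3 counts). The median log2 ratio of the 13 was -1.13, against 0.16 over all genes tested. Cdh5 is one of the endothelial markers used to name the classes, so its call follows in part from the naming. Cdh2, which is not a marker, was at 225 CPM in ependymal-like against 26.2 CPM in endothelial-like cells.

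Of 12 partners tested between arterial-like and capillary-like cells, Nov (CCN3, a secreted protein that binds connexin 43) was called higher, at 97.0 against 2.13 CPM or 45.4-fold, and Cdh2 lower, at 2.27-fold, where 3.46% of all genes were called higher and 1.66% lower. Their median log2 ratio was 0.02, against 0.04 over all genes. None of 12 was called between venous-like and capillary-like cells, where 1.77% of all genes were. In mural-like against endothelial-like cells, 14 were tested and 3 were called higher, Dbn1 (drebrin, an actin-binding partner of connexin 43, 9.05-fold), Cdh2 (5.52-fold) and Src (2.65-fold). Another 6 were called lower, among them Cdh5 (6.797-fold), an endothelial marker used for naming, and Cav1, which encodes caveolin-1 (4.03-fold). Over all genes 16.0% were called higher and 14.5% lower, and the partners' median log2 ratio was -0.42 against 0.05 over all genes. Between traced and non-traced ependymal-like cells, 2 of 11 were called, Cav1 and Cdh5, both lower and both endothelial genes, where 2.90% of all genes were called.

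The genes whose levels were most like each connexin were found by Pearson correlation of log2(CPM + 1) over the 40 sub-clusters of at least 50 cells, among 13247 genes. Mixed and unnamed sub-clusters were included. These groups share 2 libraries, so the values are descriptions. Nim1k, Adgrb3 and Ttyh1 were closest to Gja1 (0.96 for each). Gja4 was closest to Mgp (0.96), Gper1 (0.955) and Cpm (0.95), and Gja5 to Nos1 (0.94), Laptm5 (0.94) and Fbln5 (0.93). Mgp and Fbln5, which are among the arterial markers used for naming, also led the arterial-like sub-cluster with the highest Gja4 and Gja5. Gjc1 was closest to Lims1 (0.955), Itga4 and Tnfrsf21 (0.95 each), and Gjb6 to Dbx2, Etv4 and 1700047M11Rik (0.98 each). The Gjb6 values rest largely on 1 group, the astrocyte and endothelial droplets, which held most Gjb6 UMIs. For Gjb2, with 61 UMIs in all, the closest were Atp13a4, Lnx1 and Gpr162 (0.82 to 0.85). By Spearman correlation, 1 of the 3 named for Gja4 (Mgp) and 0 of the 3 for each other connexin were named again.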

How the data were processed

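The authors sorted CD45- CD133+ DNGR-1 traced and non-traced spinal cord cells, made 10x 3′ libraries and deposited UMI counts per gene and cell. According to the submitters' processing notes, Cell Ranger 3.0.2, STAR 2.5.1b, R 3.6.0, Seurat 3 and mm10 were used, and the study's methods add a tdTomato-WPRE sequence to the transcriptome. The study's cell filter left all 25411 and 4825 deposited cells.

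Here the counts were log-normalised and clustered per library with scanpy 1.11.5 (Python 3.11.15, 2000 features without connexins, reporter or hemoglobin genes, 20 components, 20 neighbours, Leiden resolution 0.8, then 1.0 within classes). Depth was 1011 to 70509 UMIs per cell (non-traced) and 1013 to 41258 (traced). Classes were named from markers detected in at least 50% of cells, and clusters with markers of more than one class were called mixed and kept apart from the classes. No doublet caller was used in the main analysis, and Scrublet was an alternative. A doublet of like cells is not removed by this. UMIs were summed per class and library and given as CPM. Calls needed a fold past 2 and 10 CPM in the higher class. Limits for a count of 0 used 3 counts. Cells were thinned to 1000 UMIs for shares, or 3000 for pairs of genes. The calls were tested on simulated data. Coordinates are from GENCODE M21 (GRCm38) and promoters from RefSeq (GRCm38.p6), which held 5 of the 6 connexins.

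The 6 connexins, the other connexins, the 17 partners and pannexins and the markers were listed, and the 3 genes most like each connexin were named, with earlier results of these data known. Sub-clusters, mixed droplets and the traced endothelial-like cells were named after their values were seen. Some genes of these lists are not reported here.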

Additional observations from a re-analysis of the deposited data

How the results depend on the processing

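The 5 counts of called connexins were recomputed under 10 alternatives, and 45 of the 50 values stayed within 1.5 times the count reported, with 0 reversed. Of 249 values for single connexins, 18 moved by more than their counting interval and 0 called ones changed direction; the uncalled log2 ratios of Gja1 (arterial-like against capillary-like) and Gjc1 (venous-like against capillary-like) changed sign with the clustering, at 0.05 for Gja1 and -0.17 for Gjc1 after integration. With no minimum level, 2 connexins were called between traced and non-traced ependymal-like cells (Gja4 and Gjb2, both lower), 6 between ependymal-like and endothelial-like cells, 1 between venous-like and capillary-like cells (Gjb6, lower) and 5 between mural-like and endothelial-like cells, all additions resting on levels under 10 CPM. With a fold past 1.5, 1 was called between venous-like and capillary-like cells (Gja1, lower). The other settings were classes from both libraries integrated in Seurat 5.3.0 (R 4.3.3), a finer clustering, Scrublet calls left out, cells with 2 or more ependymal, endothelial or mural markers of another class left out, cells over 10% mitochondrial UMIs left out, size factors, means of single-cell CPM and, chosen after seeing the data, barcodes shared by the libraries left out. Over these, the log2 ratio of Gja4 in arterial-like against capillary-like cells ranged from 4.16 to 4.39 and that of Gja5 from 5.87 to 7.36. In mural-like against endothelial-like cells Gja1 ranged from -3.07 to -0.07, the last from 23 cells with 0 Gja1 UMIs, where the call was lost and 2 connexins were called. Scrublet called 2170 non-traced cells and 0 traced cells doublets, so leaving its calls out changed the non-traced library only. These were 8.54% and 0% of cells, against rates of 20.3% and 3.86% expected from the cell numbers. Doublets may therefore remain under this setting. No paired analysis was possible because each group had 1 library.

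The spread between animals is unknown, since each group was 1 library. Gja1 in mural-like cells rests on 10 UMIs and Gja5 in the 64 traced endothelial-like cells on 8, so these folds have wide intervals. Markers of other classes were found in the mural-like class and the ependymal-like cells of the non-traced library, and their part was not tested. Gja5 was detected in 7.54% of arterial-like cells at full depth, so its absence from a cell shows little.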
